A study of Homo sapiens with 4 samples.

Results

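CTCF peaks on the distal short arm of chromosome 5 are described here, in the established human melanoma cell line MDA-MB-435. The members were the peaks whose centre lay before position 17400000 of chromosome 5 in the genome build hg38, 267 of the 42462 peaks of 1 library and of the 2396 on chromosome 5. The stretch was chosen by the local background, the tag level around each peak, which was higher there than on the rest of the chromosome. The library was chromatin immunoprecipitation and sequencing (ChIP-seq) of asynchronous, untreated cells with a rabbit antibody against CTCF, replicate 1. The series holds 4 samples, 2 asynchronous and 2 mitotic, the latter from nocodazole-arrested cells and an antibody against pT431 CTCF, a phosphorylated form. The other 3 samples were not analysed here, so no value has a replicate check, and no p-value is given. All cells came from 1 line, a single tumour background.

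CTCF is a zinc finger protein that binds a long, GC-rich motif at insulators and at the anchors of chromatin loops, where it halts the loop-extruding cohesin complex. Much of its binding is shared between cell types, at promoters, inside genes and in gene deserts alike. The distal short arm of chromosome 5 begins with a crowded stretch of genes that holds TERT, the catalytic subunit of telomerase, and SDHA, the flavoprotein subunit of succinate dehydrogenase. It continues through a sparse stretch around the Iroquois homeobox genes, which pattern the embryo, to long genes of neurons and cilia.

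The promoter stretches under the strongest peaks that overlapped a promoter are printed first, because they show promoter bases that these peaks covered. The peaks at BASP1 and ANKH, 539 and 536 bp from their starts, missed the promoters as defined here and are not printed. Promoters were taken from RefSeq (GRCh38.p14, the coordinates of hg38), from 250 bases before to 50 after each gene start, and 53 of the 63 protein-coding genes of the stretch were matched. Each line gives only bases before the gene start that the peak covered, at most 120, read 5′ to 3′ on the strand of the gene. All 5 genes lie on the plus strand. Capitals mark matches on either strand to a loose form of the CTCF core, which reads CC, then AG 3 bases on, then GGC 2 bases on.
AHRR (chr5:321585-321704): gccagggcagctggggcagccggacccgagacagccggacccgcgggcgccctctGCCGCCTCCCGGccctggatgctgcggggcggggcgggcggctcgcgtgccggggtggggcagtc
SDHA (chr5:218070-218138): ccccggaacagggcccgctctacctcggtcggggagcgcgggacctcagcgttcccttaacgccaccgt
NKD2 (chr5:1008605-1008724): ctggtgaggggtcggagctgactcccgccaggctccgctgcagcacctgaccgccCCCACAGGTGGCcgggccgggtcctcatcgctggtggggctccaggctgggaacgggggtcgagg
TRIO (chr5:14143092-14143166): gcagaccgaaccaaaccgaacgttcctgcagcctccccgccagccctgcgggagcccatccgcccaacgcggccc
FBXL7 (chr5:15500057-15500176): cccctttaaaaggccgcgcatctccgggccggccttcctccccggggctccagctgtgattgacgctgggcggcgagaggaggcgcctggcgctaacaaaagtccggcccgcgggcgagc
The match before AHRR, the gene of the aryl hydrocarbon receptor repressor, lay on the minus strand. The match before NKD2, which encodes an antagonist of Wnt signalling, lay on the plus strand. The SDHA, TRIO and FBXL7 stretches held no match, which says only that these letters are not in these windows. GC content ran from 70.8% in the FBXL7 stretch to 82.5% in the AHRR stretch.

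A minority of the promoters of the stretch were overlapped by a peak, and none of those promoter windows held the main form of the motif. Of 159 promoters, 14 (8.81%) were overlapped by a peak, against 11.1% of the 34961 promoters on chromosomes 1 to 22 and X. These 14 belonged to 12 genes and to 9 peaks, since neighbouring genes share a peak. The main core, which reads CCA, AG and GGC with 2 free bases between each, searched on both strands, was in 0 of the 14 (Clopper-Pearson 95% interval up to 23.2%), against 2.41% of all promoters and 7.96% of all promoters under a peak. The looser core, which every match to the main core also fits, was in 3 of the 14, before AHRR, NKD2 and BRD9, against 10.6% of all promoters and 26.9% of those under a peak. With 14 promoters, a difference from those shares was not detectable. The search covered the promoter window and not the whole peak. At SDHA and TRIO, for example, the peak centre lay 356 and 350 bp from the start, outside the window. A motif at such a centre could not be found, so the 0 does not show that these peaks lack the core. Some of the 14 overlap, and PDCD6 and PDCD6-AHRR have the same promoter, so the interval, which treats them as separate, can be too narrow.

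Peak values of the stretch are given as normalised tags, scaled by the authors to a library of 10000000 tags from the caller's total of 19210460. The median member held 21.1 normalised tags, with the middle 50% of members between 12.9 and 39.5, against 18.7 (11.7 to 31.2) for the 2129 peaks on the rest of chromosome 5. The lowest member held 7.29 and the highest 123.4. The 95% interval of the members' median, 18.2 to 24.5, taken from the order of the peaks, overlapped that of the rest, 18 to 19.5. The median of the rest lay inside the members' interval.

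Local background, the measure by which the stretch was chosen, was computed as normalised tags divided by the fold over the surrounding 10 kb, and is the number of normalised tags that those surroundings would give in a peak's width of 349 bp. Its median was 1.81 over the members (1.71 to 1.92), with the middle 50% of members between 1.49 and 2.25. On the rest of chromosome 5 the median was 1.39 (1.37 to 1.42), so the ratio was 1.30. Of the members, 217 (81.3%) lay above the median of the rest, as did 56.2% of all peaks on chromosomes 1 to 22 and X. These values describe the choice and support nothing. No control library was named for the peak caller, and whether extra DNA copies have a part in the values was not tested.

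The percentiles of background are given as a further description of the choice. At the 10th, 25th, 75th and 90th percentiles the members' background was 1.25, 1.30, 1.26 and 1.29 times that of the rest of the chromosome. The corresponding ratios of normalised tags were 1.08, 1.10, 1.26 and 1.29, so tags stood further above the rest among strong peaks than among weak ones. The caller's fold over the local region was lower than on the rest of the chromosome at each of these percentiles. Its median was 11.8 (11.0 to 12.8) over the members and 13.2 (12.8 to 13.7) over the rest, a ratio of 0.89. Background is computed from tags and fold, so the ratios of both belong to the description of the choice.

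**Figure D1:**
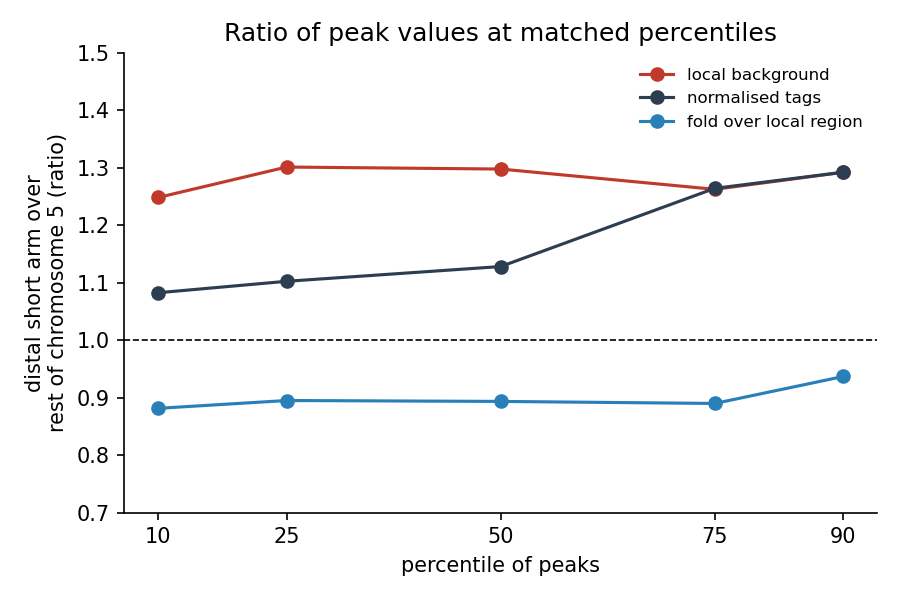
Ratio of the value over the distal short arm (267 peaks) to that over the rest of chromosome 5 (2129 peaks), on the y axis, at 5 percentiles of peaks on the x axis, for local background, normalised tags and fold over the local region. The background ratio stays between 1.25 and 1.30, the tag ratio runs from 1.08 to 1.29 and the fold ratio stays below 1.

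Strong peaks made up a larger share of the members than of the rest of the chromosome. With the whole list divided by the caller's score into 4 groups of about equal size, 75 members (28.1%, 22.8 to 33.9) were in the highest group, against 20.7% on the rest of chromosome 5. In the lowest group were 53 members (19.9%), against 25.5%. The share that 4 equal groups would give lay inside the members' interval for the highest group. The median score was 50 in the first 2 Mb. It was 34.75 from 2 to 6 Mb, 37.75 from 6 to 12 Mb and 38.5 from there to the limit. On the rest of the chromosome it was 36. Without the first 2 Mb, the ratio of median normalised tags to the rest of the chromosome was 1.04, against 1.13 with it. Peak score counts tags, which enter the background that chose the stretch, so these shares and medians are a description. The background ratio was 1.29 within the highest group and 1.30 within the lowest.

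Along the stretch the background varied with position. In 1 Mb bins with at least 5 peaks, the median background exceeded that of the rest of the chromosome in 14 of 16 bins wholly inside the stretch, and in 53 of 141 bins beyond it. The bins inside ran from 1.18 between 11 and 12 Mb, most of it the gene CTNND2, to 2.37 between 10 and 11 Mb, which holds the chaperonin gene CCT5 and the ubiquitin ligase gene MARCHF6. Bins of the rest of the chromosome reached 2.27, so the ranges overlapped. Because the stretch was chosen by this measure, the counts of bins describe the choice and support nothing.

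**Figure D2:**
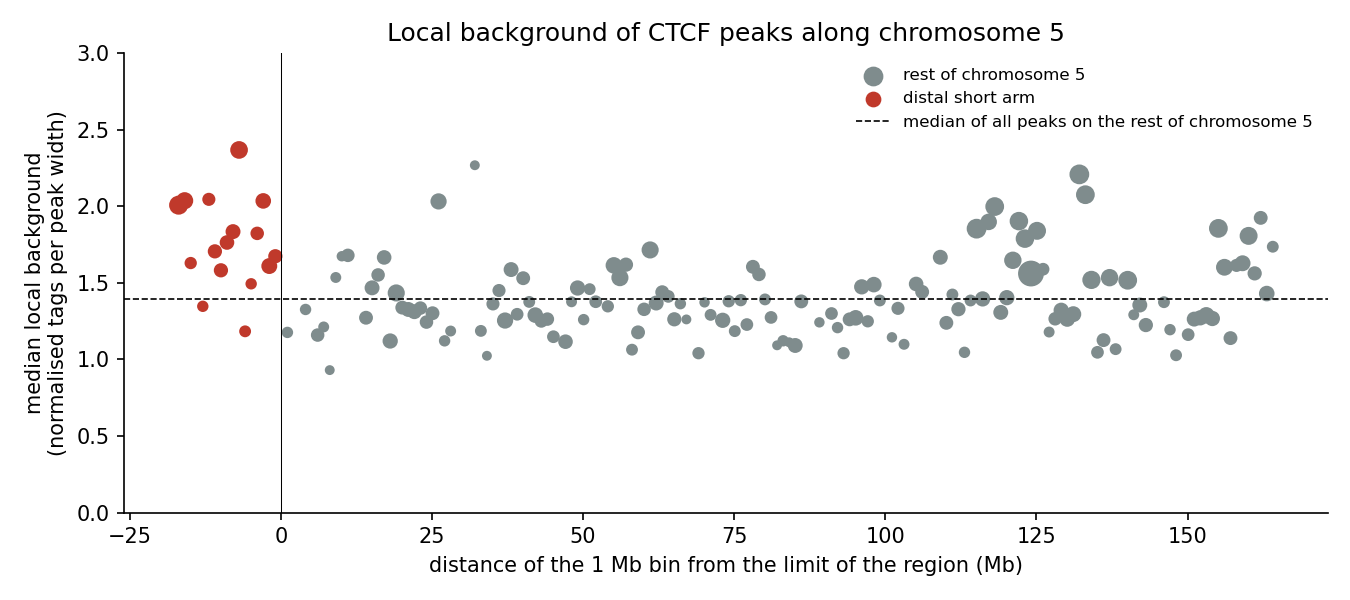
Median local background (y axis, normalised tags per peak width) of CTCF peaks in 1 Mb bins of chromosome 5 against the bin's distance from the limit of the stretch (x axis, Mb), with point area growing with the number of peaks. The bin that spans the limit and bins of under 5 peaks are left out. Of the 16 bins on the distal short arm, 14 lie above the dashed median of the rest, 1.39. The stretch was chosen by this measure.

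The first 2 Mb, rich in genes, carried a median background of 2.01 (1.81 to 2.26), with 27.5 peaks (20.7 to 35.8) and 14 protein-coding genes per Mb. Between 2 and 6 Mb, where the Iroquois genes IRX2 and IRX1 lie, both were low, at 1.51 (1.34 to 1.81) and 8.50 peaks per Mb (5.89 to 11.9), with 1 gene per Mb. The background was 1.69 (1.57 to 1.83) between 6 and 12 Mb, and 1.91 (1.68 to 2.03) from 12 Mb to the limit, where there were 2.04 genes per Mb. The intervals of the first and the last of these parts overlapped. Without the first 2 Mb the ratio to the rest of the chromosome was 1.25.

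The limit fell in a gap without a peak. The last 3 members, 184 to 209 kb before it and upstream of BASP1, a membrane-attached protein of growth cones, had backgrounds of 4.75, 1.92 and 3.83. The first 3 peaks beyond it, 221 to 552 kb after it, had 0.952, 1.25 and 1.25. All of the 3 members nearest the limit were above these 3 peaks. Since the limit was chosen by this measure, that order describes the choice and supports nothing. The member with 4.75 had another peak 1.03 kb away.

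The members lay away from the ends of protein-coding genes more often than peaks elsewhere on the chromosome. Within 1 kb of an annotated end of a protein-coding gene were 14 of 267 members (5.24%, 2.90 to 8.64), against 274 of 2129 peaks (12.9%, 11.5 to 14.4) on the rest of chromosome 5 and 12.4% on chromosomes 1 to 22 and X. Within 1 kb of a transcription start the shares were 4.87% and 11.0%. Over 50 kb from any protein-coding gene end, inside genes or outside, were 137 members (51.3%, 45.1 to 57.5). The share on the rest of the chromosome was 36.4% (34.3 to 38.4). The intervals of these shares did not overlap, and they cover counting error only. Ends of long noncoding RNA genes had 4.12% of members (2.07 to 7.25) within 1 kb, against 6.29% of the rest (5.30 to 7.41). Those intervals overlapped. The stretch held 3.62 protein-coding genes per Mb, against 5.06 on the rest of chromosome 5, and 7.93 long noncoding RNA genes per Mb, against 5.29.

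By position relative to protein-coding genes, 114 members lay inside a gene and over 1 kb from an end. Another 45 lay outside genes within 50 kb of an end and 94 farther out. The median background, which chose the stretch, is given by class as a description. Over the members and the rest, it was 2.38 against 1.75 at gene ends, 1.93 against 1.39 inside genes, 1.82 against 1.44 outside within 50 kb, and 1.61 against 1.22 farther out. The ratios were 1.36, 1.38, 1.26 and 1.31. The part of gene position in the background was not tested.

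**Figure D3:**
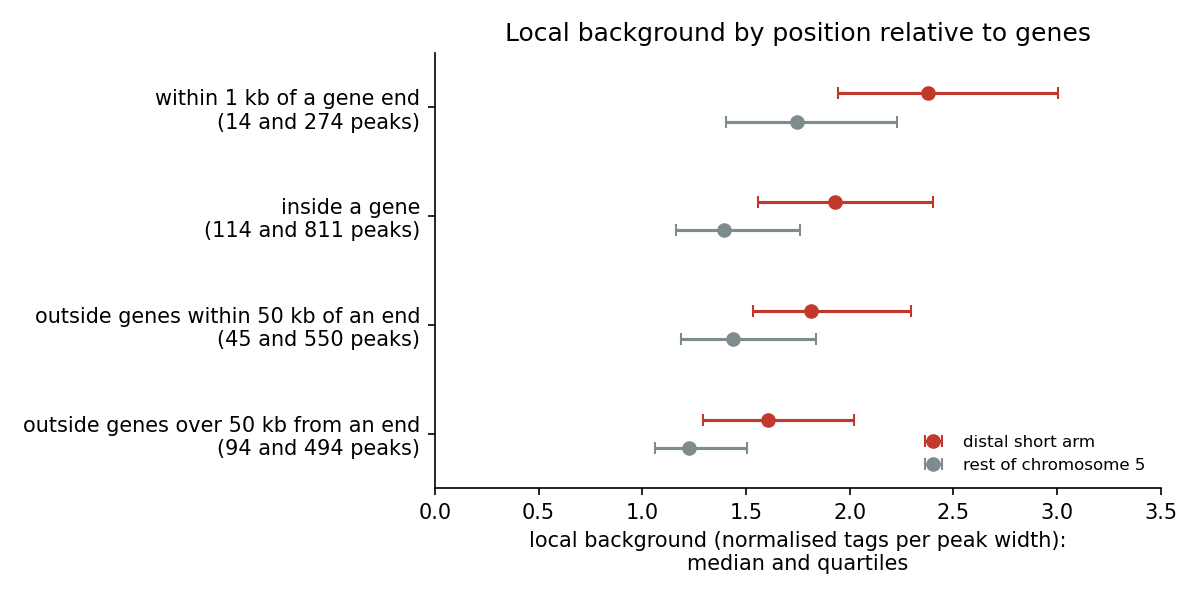
Local background on the x axis (normalised tags per peak width; points are medians, bars run from the 25th to the 75th percentile) for peaks in 4 positions relative to protein-coding genes on the y axis. In all 4 positions the median on the distal short arm is above that on the rest of chromosome 5, while the bars overlap.

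Neighbouring peaks bear on the background, since the surrounding 10 kb can hold the tags of another peak. Another peak centre within 10 kb was found for 86 members (32.2%, 26.6 to 38.2) and for 30.5% of the peaks on the rest of the chromosome. Among the 181 members with none, the median background was 1.69 (1.59 to 1.81), against 1.32, a ratio of 1.28. Among the 100 of these that also lay over 50 kb from a protein-coding gene end, it was 1.52 (1.38 to 1.68). The rest had 1.19, a ratio of 1.27. Among the 86 members with a neighbour, it was 2.08 (1.83 to 2.36), against 1.79, a ratio of 1.16, so the ratio was lower where peaks had neighbours than where they had none. These are again values of the measure that chose the stretch, and the part of neighbours in them was not tested.

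Peak density was 15.3 per Mb (13.6 to 17.3) over the stretch, 13 (12.4 to 13.5) over the rest of chromosome 5 and 10.9 (9.70 to 12.2) over the rest of the short arm. Counting only the length outside peak-free stretches of at least 1 Mb, the rest of the chromosome held 13.8 per Mb. The longest gaps between members were 704 kb (from 2805426 to 3509323) between IRX2 and IRX1, and 561 kb (from 3734983 to 4295694) beyond IRX1. No protein-coding gene lay wholly inside either gap. The 2 members of lowest background, 0.641 and 0.782, were those at positions 4295694 and 3734635, at the edges of the second gap.

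Of the 10 members with the highest score, 7 lay inside a protein-coding gene, as did 121 of all 267 members, and 0 lay within 1 kb of a gene end, as did 5.24% of all members. From 10 peaks neither count can be read as a difference. The highest score on the stretch, 216, belonged to a peak at 671592 to 671940, where the centrosomal gene CEP72 and the microtubule-binding gene TPPP overlap. It held 123.4 normalised tags (Poisson 95% interval 108 to 140) on a background of 6.48. A second peak 2.49 kb away, at 669105 to 669453, held 80.4 (68.0 to 93.9) on the highest background of all members, 7.86. These 2 peaks form the strongest pair of the stretch.

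The next in score was inside SLC6A19, an amino acid transporter gene, at 1208934 to 1209282, with 99.7 normalised tags (86.3 to 115) on a background of 3.41. The peak at 6765689 to 6766037 held 95.8 (82.4 to 111), 8.82 kb beyond TENT4A, which encodes a poly(A) polymerase, and 449 bp from the end of the noncoding RNA gene LOC102724943. A peak inside PLEKHG4B at 188598 to 188946 held 88.2 (75.2 to 102). These 3 lay on backgrounds of 2.30 to 3.41, well below those of the CEP72 and TPPP pair.

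A peak of 88.5 normalised tags (75.7 to 103) at 317120 to 317468 lay between the calcium-binding gene PDCD6 and AHRR, inside the readthrough transcript PDCD6-AHRR. It had a partner 4.34 kb away, at 321456 to 321804 and 84 bp from the AHRR start, with 74.2 (62.7 to 87.7). Their backgrounds, 6.76 and 7.27, were the third and the second highest of the stretch. Like the pair at CEP72 and TPPP, these were strong peaks within 5 kb of each other on a high background.

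The other 5 of the 10 highest scores had no other peak within 10 kb. Inside ANKRD33B a peak at 10627896 to 10628244 held 87.2 normalised tags, with its nearest neighbour 61.9 kb away. The peak at 4942279 to 4942627 held 84.6 and lay 198 kb from the nearest protein-coding gene end, that of the protease gene ADAMTS16. Its background, 1.61, was the lowest of the 10 and its fold over the local region, 52.6, the highest. Peaks inside ADCY2, an adenylyl cyclase gene, CMBL, a hydrolase gene, and ANKH, a pyrophosphate transport gene, held 81.7, 81.7 and 82.2 normalised tags. The folds of these 3 were 40.0, 32.8 and 41.0.

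All of the 10 members of highest background, from 4.18 to 7.86, had another peak within 6.22 kb. Of the 10 of highest score 4 had a peak within 10 kb, as did 32.2% of all members. Besides the pairs at CEP72 and TPPP and at AHRR, they included a pair inside RETREG1, an endoplasmic reticulum receptor of autophagy, at 16550330 and 16552749, with 60.9 and 57.3 normalised tags on 4.49 and 4.59. A pair at 17189451 and 17190478, in the antisense gene BASP1-AS1, held 58.0 and 41.9 on 4.18 and 4.75. The remaining 2 were a peak at 1168165, 4.76 kb from LOC124900189, with 76.0 on 4.64, and a peak at 1644897, 121 kb from LPCAT1, a phospholipid remodelling gene, with 45.5 on 4.99.

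The 14 members at gene ends served 16 of the 63 protein-coding genes (25.4%, 15.3 to 37.9), against 28.4% of the 19839 genes on chromosomes 1 to 22 and X. Counting peaks inside genes as well, 47 of the 63 genes had a peak and 16 had none. That count was not made for the other genes, so no difference is read from it. The strongest at a gene end was the AHRR peak of 74.2 normalised tags. BASP1 followed with 69.2 (58.0 to 82.0), 539 bp from its start. A peak shared by the divergent genes SDHA and CCDC127 held 57.8 (47.5 to 69.6), 356 and 189 bp from their starts. It stood 23.6-fold over its surroundings, the highest fold among the 14.

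The other gene-end peaks were weaker. NKD2 had 31.8 normalised tags (24.3 to 40.8), ANKH 27.1 (20.2 to 35.5), TRIO 21.9 (15.8 to 29.6), and FBXL7, an F-box protein of ubiquitin ligation, 18.5 (13.1 to 25.9). OTULINL had 16.9, TENT4A 12.8 and DNAH5, an axonemal dynein gene, 12. The intervals of neighbours in this order overlapped. The 4 weakest, between 7.29 and 9.89, stood at FASTKD3, a mitochondrial RNA-binding protein, at LRRC14B, at PDCD6 and between the divergent genes BRD9, of the SWI/SNF chromatin remodellers, and TRIP13, of the spindle checkpoint. Their folds, 4.08 to 4.34, were just past the caller's limit of 4.

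Several gene-end peaks of the stretch had a low focus ratio. The focus ratio, a fraction computed by the authors' caller, counts the tags that lie where a single binding site would put them and falls when tags are spread. It was under 0.7 in 8 of the 14 (57.1%, 28.9 to 82.3), against 47 of 274 gene-end peaks (17.2%, 12.9 to 22.1) on the rest of chromosome 5 and 17.9% of gene-end peaks on chromosomes 1 to 22 and X. The 0.7 was chosen after the values were seen. Gene-end members also had a higher median background than gene-end peaks on the rest of the chromosome, 2.38 against 1.75. Their median fold was lower, 7.72 against 11.0. Background chose the stretch, and its part in the focus ratios was not tested. These 8 were the peaks at LRRC14B, PDCD6, BRD9 and TRIP13, TENT4A, FASTKD3, DNAH5, OTULINL and ANKH, with 7.29 to 27.1 normalised tags. The peaks at TRIO and FBXL7, with 21.9 and 18.5, were weaker than that at ANKH and had higher focus ratios, 0.816 and 0.817. Over all members the median focus ratio was 0.846, against 0.843 on the rest of the chromosome.

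**Figure D4:**
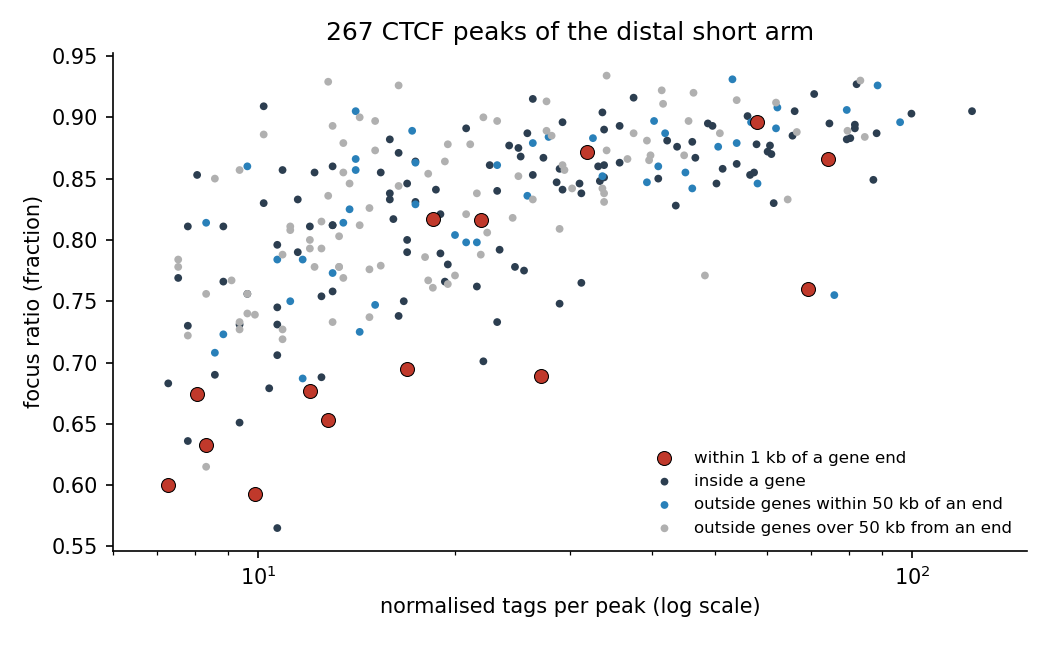
Focus ratio (y axis, a fraction that falls when tags are spread) against normalised tags (x axis, log scale) for the 267 members, coloured by position relative to protein-coding genes. Of the 14 gene-end peaks, 8 lie under 0.7 and at most 27.1 normalised tags, while those at AHRR, SDHA and NKD2 lie above 0.85.

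Counts of genes with an end peak in the gene lists are read against the 28.4% of all protein-coding genes and the 25.4% of the 63 genes of the stretch. Of the 14 subtelomeric genes, 7 had a peak within 1 kb of an end, namely AHRR, SDHA, CCDC127, BRD9, TRIP13, PDCD6 and LRRC14B, and CEP72 and EXOC3 were among those without. These 7 genes shared 5 peaks, so they are not 7 separate sites, and no difference is read from the count. Of 8 genes around TERT, 1 (12.5%), NKD2, had a peak at an end, and CLPTM1L and LPCAT1 had none, though LPCAT1 held 3 peaks inside, with 25.5 to 56.5 normalised tags. TERT, singled out after its value was seen, had no peak within 1 kb of an end and 1 weak peak inside, with 10.2 normalised tags. Of the solute carriers in this group, SLC6A3, the dopamine transporter gene, held no peak.

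The Iroquois genes IRX1, IRX2 and IRX4 had a peak at an end in 0 of 3. Against 28.4% of all protein-coding genes, neither this count nor that around TERT can be read as a difference. IRX2 held 1 weak peak inside, with 10.2 normalised tags, and IRX1 1, with 7.81. The nearest peak to IRX4 was 78.0 kb away.

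Mitochondrial and one-carbon genes had an end peak in 2 of 7, at SDHA and FASTKD3, and none at ATPSCKMT or ICE1. The RNA and transcription genes had 2 of 6, at TENT4A and BRD9, and ICE1 and MED10 had none. Ubiquitin and autophagy genes had 2 of 7, at FBXL7 and OTULINL, and none at MARCHF11 or MARCHF6, while all 7 held a peak inside. Growth, signalling and cytoskeleton genes had 3 of 9, at BASP1, ANKH and TRIO, and none at CCT5 or CMBL. Against the 28.4% of all protein-coding genes, none of these counts of end peaks from 6 to 9 genes can be read as a difference. For peaks inside genes no share over all genes was computed, so that count is not read as a difference either.

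The long genes held peaks along their bodies. In all, the 8 genes of neurons, axons, cilia and matrix held 55 peaks inside, and 3 of them, TRIO, FBXL7 and DNAH5, had an end peak, while ADAMTS16 and ADCY2 had none. SEMA5A, an axon guidance gene, held 11 peaks over 511 kb, or 2.15 per 100 kb, with 7.29 to 79.4 normalised tags. CTNND2, which encodes delta-catenin of neuronal junctions, held 10 over 933 kb, or 1.07 per 100 kb (0.514 to 1.97), with 8.07 to 43.7. Its density was the lowest of the 8, though its interval overlapped those of the others.

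TRIO held 7 peaks over 367 kb (1.91 per 100 kb), DNAH5 7 over 321 kb (2.18), ADCY2 6 over 434 kb (1.38), FBXL7 6 over 440 kb (1.36), MYO10, an unconventional myosin gene of filopodia, 5 over 274 kb (1.82) and ADAMTS16 3 over 180.0 kb (1.67). The Poisson intervals of these densities overlapped one another. The local background also differed between these genes. Its median was 2.51 in TRIO (1.92 to 3.08 over its 7 peaks) and 1.21 in CTNND2 (0.819 to 1.83 over its 10), and these ranges did not overlap. In ADAMTS16 the median was 2.10 (1.99 to 2.93 over its 3 peaks), a range also above that of CTNND2. In SEMA5A it was 1.99, in FBXL7 1.68, in MYO10 1.67, in DNAH5 1.59 and in ADCY2 1.5. TRIO and CTNND2 are the highest and lowest of these genes, on the measure that chose the stretch, so the contrast is a description.

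The first 17.4 Mb of the other autosomes are set beside the stretch as a description, since both the chromosome and the limit were chosen by this measure, which favours a high place for chromosome 5. Among the 17 autosomes with at least 100 peaks there, the ratio of the median background of the first 17.4 Mb to that of the rest ran from 0.83 on chromosome 3 to 1.11 on chromosome 4, and was 1.30 on chromosome 5. The ratio of normalised tags, 1.13 on chromosome 5, was exceeded on chromosomes 1 and 19 (1.21 and 1.16). In absolute terms the first stretch of chromosome 19, with 494 protein-coding genes, had a median background of 1.85, close to the 1.81 of chromosome 5 with 63.

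**Figure D5:**
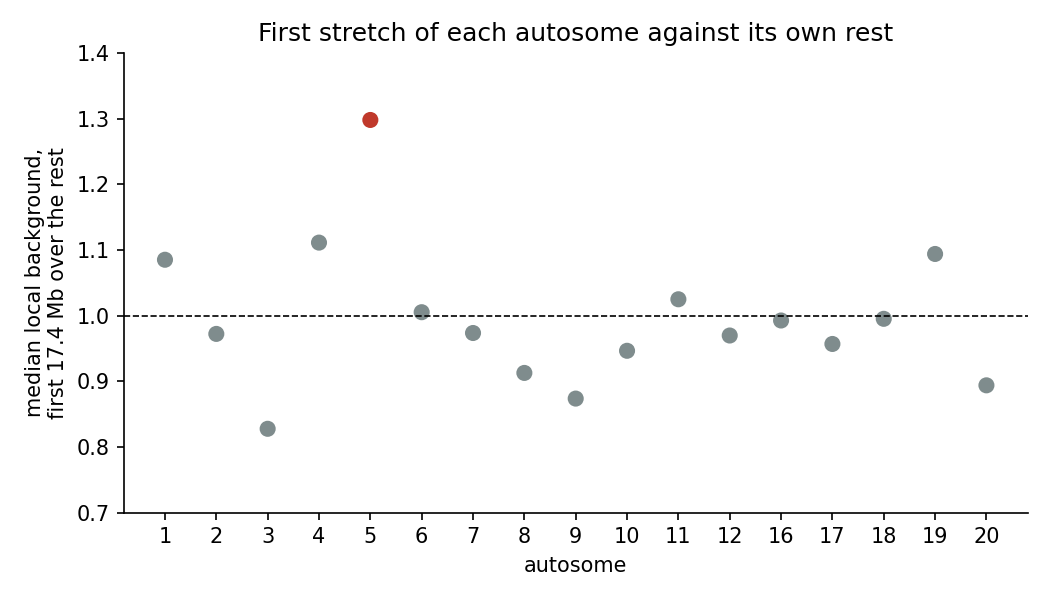
Ratio of the median local background of peaks in the first 17.4 Mb to that of the rest of the same chromosome (y axis) for the 17 autosomes with at least 100 peaks there (x axis). Chromosome 5, in red, is at 1.30 and the other 16 lie between 0.83 and 1.11, and chromosome 5 and its limit were chosen by this measure.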

How the data were processed

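The deposited peak list was made by the authors with HOMER findPeaks in its factor style on asynchronous replicate 1 alone, with no control library, a false discovery rate of 0.001 (15 tags) and at least 4-fold over the surrounding 10 kb, per the file headers. The submitters' processing notes name Bowtie2, HOMER and hg38 without versions. The deposited tag signal per peak was scaled by the authors to 10000000 tags. The deposited focus ratio is a fraction, the deposited score is the caller's own, and the deposited fold over the local region and clonal fold are each a ratio. The deposited local p-value was not used here.

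Members followed the stated rule, read as all peaks before the limit, so that no peak was picked by its own background. Members and gene lists were chosen with earlier results of these data known. Depth was 19210460 tags. Tags per peak have exact Poisson 95% intervals, shares have Clopper-Pearson ones, and medians have binomial order-statistic intervals over peaks. All of them cover counting error or the spread over peaks of 1 library, and repeated tags or shared surroundings can make them too narrow. Genes came from RefSeq (GRCh38.p14), without rows on alternate scaffolds, 19839 protein-coding genes in all. The genes named were, per list, up to 4 with the highest tags at an end and 2 without a peak in alphabetical order. Also named were the 10 peaks of highest score, the 10 of highest background and the 3 on either side of the limit. Promoters printed were the 5 with the highest tags and at least 30 covered bases before the start, because the planned rule, promoters holding the main motif, found none. Counting and motif functions were tested on simulated data. Tools were matplotlib 3.10.9, scipy 1.17.1, pandas 2.3.3, numpy 2.4.6 and Python 3.11.15.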

Additional observations from a re-analysis of the deposited data

How the results depend on the processing

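Of 41 alternatives over 7 results, 34 stayed within the interval of the value (for counts of genes, within 1.5 times), 7 moved and 0 reversed. The background ratio of 1.30 ran from 1.25 without the first 2 Mb to 1.36 against the rest of the short arm, and was 1.22, outside its interval, against all other autosomal peaks. Leaving out peaks under the median score gave 7.87 peaks per Mb and 7 genes with a peak at an end in place of 16. With a window of 5 kb, 16.5% of members lay at a gene end and 35 genes had a peak there. With all annotated genes, 10.9% of members lay at a gene end. The looser core was found in 3 promoters in place of 0. Fewer peaks, a wider window, more genes or fewer fixed letters, respectively, shift these counts by construction. Analyses of isolated peaks were added after seeing the data. No paired analysis was possible because only 1 library was analysed, and for the same reason no replicate could be left out. Depth limits the weak members: at 7.29 normalised tags, or 14 tags, the interval runs from 3.98 to 12.2.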

Other observations

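Windows of 17.4 Mb were also laid end to end over the autosomes, a description chosen after the results were seen. Among 166 windows with at least 50 peaks, the first of chromosome 5, whose limit was chosen by this measure, ranked 9 by median local background. Of the 8 higher windows, 6 lay on chromosome 3 (1.90 to 2.09, with 55 to 137 protein-coding genes each) and 2 on chromosomes 17 and 19 (both 1.85, with 401 and 494 genes). Among the 37 other windows with at most the 63 genes of the chromosome 5 window, 1 was higher, and their median background was 1.33. The other 10 windows of chromosome 5 ran from 1.30 to 1.58.

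The stretch holds 12 microRNA hairpins in RefSeq. A peak centre lay within 10 kb of 3 of them, MIR6075 at 1.00 kb with 26.3 normalised tags, MIR4278 at 6.79 kb with 53.9 and MIR4635 at 9.61 kb with 15.9. The hairpin farthest from a member was MIR4456, at 80.8 kb. The share over all hairpins was not computed, so no difference is read from the count.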
